A study of Mus musculus with 36 samples.

Results

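Collagens are the triple-helical proteins of the extracellular matrix, and 41 collagen genes were followed here in cultures of C2C12, an established line of mouse myoblasts, the precursors of muscle fibres. The members are the genes of the family by symbol, and the rule itself uses no measured value. They were matched to the Ensembl identifiers of the deposited count files, and all 41 were found among 49315 genes. The list held 11 fibrillar chains, 8 basement membrane chains and 22 others, and 24 of the 41 had enough counts to be tested (8 fibrillar, 5 basement membrane and 11 others).

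Each collagen molecule is a triple helix of alpha chains, identical or different, and heterotrimeric types need partner chains from separate genes. Fibrillar types I, III and V build the cross-striated fibres of connective tissue, type IV forms the sheet of the basement membrane that wraps each muscle fibre, and type VI forms beaded filaments in the matrix around it. In muscle, fibroblast-like cells are the main source of fibrillar collagen, and myogenic cells also make collagen, type IV among it.

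The study compared myoblasts with and without nanoceria (serum-coated cerium oxide nanoparticles, at 100 µg/ml in the medium reservoir) in 3 regimes, labelled as on land, in space with gravity and in space without gravity. There were 6 groups of 3 libraries of polyadenylated RNA, and every library came from a culture unit of its own. All groups share 1 established line, so they speak for that line alone. Cells were used at passage 6 to 10, kept in the same sealed hardware with the incubator set at 37°C, and preserved with RNAlater at day 9. The land cultures were run later, after the flight's time and temperature record was known, so flight and the separate run cannot be told apart in any comparison of space with land.

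The myoblast identity could be checked only in part. Myf5 and Des, defining genes of committed myoblasts, had counts in all 18 libraries, with as few as 1 and 4 in the smallest. Myod1, the master regulator of the lineage, had 0 counts in 8 of the 18 libraries and at most 34. The full list held 9 myoblast genes, of which 7 or 8 had counts in each group. Among them Pax7 was at 0 in some libraries and reached at most 13 counts. Markers of other cell types were partly present. In the osteoblast and chondrocyte list, Runx2 (6 to 164 counts) and Sox9 (1 to 2735) had counts in all 18 libraries, while Sp7 and Chad were at 0 in all. Only 3 to 5 of the 9 genes of that list had counts in any 1 group. The 5 adipocyte genes summed to at most 3.67 CPM in a library, with Adipoq and Lep at 0, and the 5 endothelial genes to at most 2.32 CPM, with Tie1 and Emcn at 0. The 5 blood cell genes summed to at most 41.8 CPM, with Cd3e at 0 and counts of the macrophage marker Cd68 in 17 libraries. In whole-culture RNA of this kind, fewer cells of a type and less RNA per cell cannot be told apart.

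Library totals lay between 2986628 and 11378178 counts in 17 libraries and at 23858 in the last, the third replicate of space with gravity and nanoceria. That library held 29 collagen counts over 13 collagens, and the other 17 held 1513 to 15514 over 22 to 32. Outside 6 genes that dominated the libraries, collagens took 0.0519% to 1.11% of counts in the 17 larger libraries. The highest shares were in the third land replicates, at 0.480% without nanoceria and 1.11% with it. Of the 24 tested collagens, 15 had their highest level of all 18 libraries in 1 of those 2. Both stood above the other 4 land libraries for 12 of the 24, against 9.97% of all 11558 genes tested. This count was made after the values were seen.

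Levels below are CPM, read counts scaled to a common library size, divided by the gene's exon length in kilobases where genes are compared. Values given as a row of 3 are replicates 1 to 3 of a group. By mean level over the 18 libraries the order was Col5a2 at 29.6 CPM per kb, Col1a1 at 27.4, Col3a1 at 19.7, Col1a2 at 12.7, Col5a1 at 9.69 and Col8a1 at 8.98. Col4a2 (6.35), Col4a1 (5.57), Col6a1 (5.02), Col12a1 (4.63) and Col18a1 (3.96) followed. The ranges of neighbours in this order overlapped throughout, and the mean of Col1a1 rested on the land libraries of replicate 3, with a median of 4.60 CPM per kb over the 18 libraries against 24.2 for Col5a2.

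**Figure D1:**
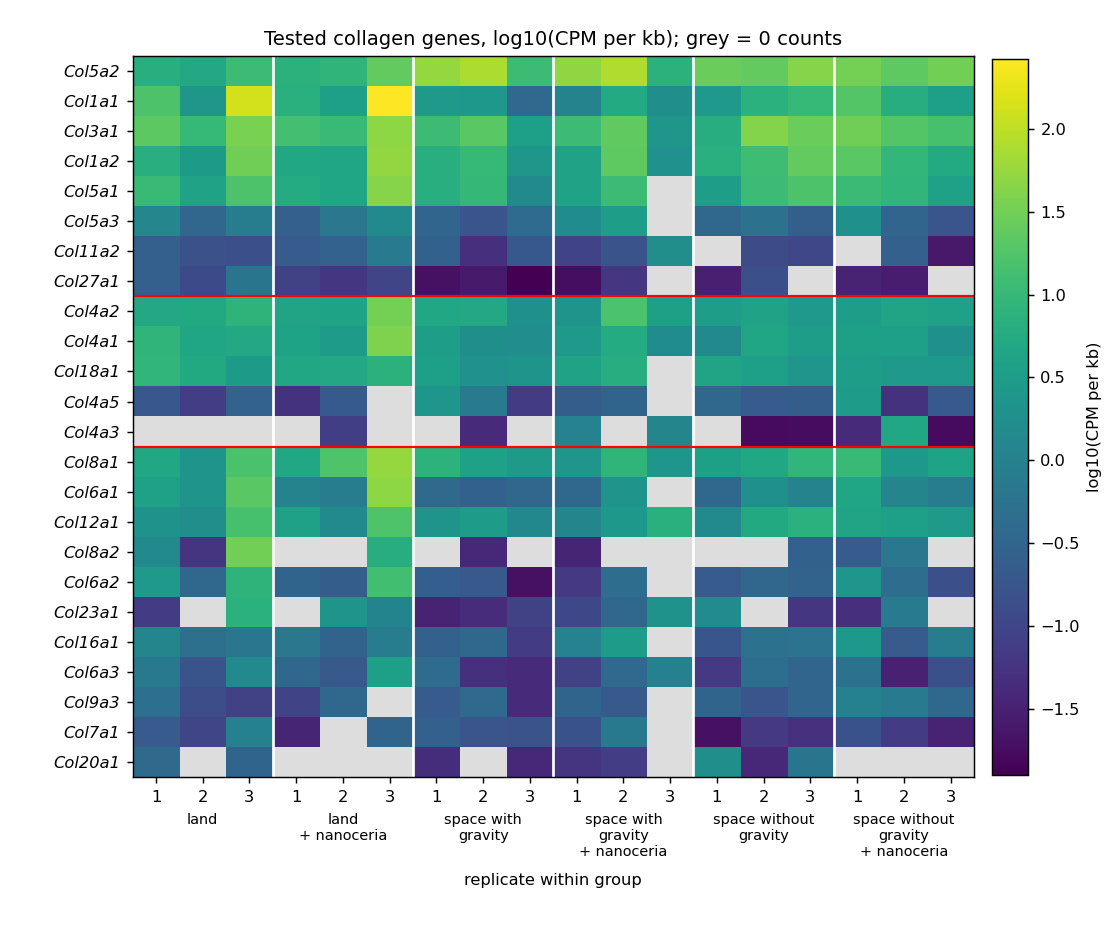
Level of the 24 tested collagens in each of the 18 libraries, as log10 of CPM per kb, with grey for 0 counts. Columns are replicates 1 to 3 of the 6 groups, and red lines divide fibrillar, basement membrane and other chains. The third land replicates are the brightest columns for Col1a1, and Col5a2 is brightest in the first and second replicates of space with gravity.

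Untested collagens had few counts. Col9a1, Col9a2 and Col13a1 were at 0 in all 18 libraries, and 12 of the 17 untested genes, those 3 included, stayed under 10 counts in every library. The highest single value among the 17 was 40 counts, for Col11a1. Cartilage type II (Col2a1) reached 2 counts and the hypertrophic cartilage gene Col10a1 reached 3. Counts of 3 or fewer were taken as the limit of detection, so these genes were not detectable at this depth.

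Space with gravity differed from land in 5 of the 24 tested collagens, averaged over nanoceria (edgeR quasi-likelihood test, Benjamini-Hochberg adjusted p under 0.05). Col5a2 rose, and Col1a1, Col6a1, Col6a2 and Col8a2 fell. The background was 14% of 11558 genes called, 7.22% higher and 6.74% lower. At an unadjusted p under 0.05 there were 11 of 24 collagens against 31.9% of all genes. The median log2 fold change of the 24 was -0.99, against -0.04 over all genes, with 18 values below 0. With DESeq2 size factors the all-gene median moved to -0.39 and the collagen median to -1.34, so about a log2 unit separated them on both scales. Without the land library of replicate 3 with nanoceria the collagen median was -0.27 and the all-gene median 0.05, so most of that gap rested on 1 library. DESeq2's own test called 1 collagen higher and 10 lower, against 23.3% of all genes.

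Col5a2 encodes the alpha 2 chain of type V collagen, a minor fibrillar collagen that nucleates type I fibres and sets their width. The gene (ENSMUSG00000026042) lies on the minus strand of chromosome 1 at 45374321 to 45503282 of GRCm38.p6. Col5a2 on land stood at 6.78, 5.17 and 11.4 CPM per kb without nanoceria and 7.68, 8.67 and 24.4 with nanoceria. Col5a2 in space with gravity stood at 55.5, 77.6 and 11.6 CPM per kb without nanoceria and 50.6, 82.5 and 7.45 with nanoceria. Col5a2 in space without gravity stood at 27.4, 24.1 and 44.4 CPM per kb without nanoceria and 33.4, 22.1 and 32.5 with nanoceria. The first and second replicates of both space-with-gravity groups and 4 of the 6 libraries of space without gravity lay above every land library, while the third replicates of space with gravity fell within the land range. The third replicate with nanoceria is the smallest library, with 6 Col5a2 counts.

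The fitted log2 fold change of Col5a2 in space with gravity against land was 2.22 ± 0.57 (SE of the fit, n = 6 against 6 libraries), with an edgeR adjusted p of 0.0187. It was the only collagen still called when the libraries of replicate 3 of both land groups were left out, at 2.80 with an adjusted p of 0.0193, and the only one called by limma voom with sample quality weights (2.06, adjusted p 0.0155). The call was lost without the second land replicate without nanoceria (2.15, adjusted p 0.0521), without the second replicate of space with gravity without nanoceria (2.00, adjusted p 0.0530) and without the first of space with gravity with nanoceria (2.21, adjusted p 0.0509). The difference from land in space without gravity was 1.57 ± 0.55, with an edgeR adjusted p of 0.0933. Both comparisons share the land libraries.

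Col5a2 also took a larger part of the collagen transcripts in space. On land it made up, of all collagen counts, 7.52%, 12.3% and 4.09% without nanoceria and 13.2%, 15.6% and 4.64% with nanoceria. The share in space with gravity was 53.5%, 56.7% and 40.0% without nanoceria and 58.9%, 44.2% and 20.7% with nanoceria. Libraries of space without gravity held 44.7%, 19.9% and 29.5% without nanoceria and 22.8%, 25.3% and 43.1% with nanoceria. All 12 space libraries lay above all 6 land libraries on this measure. It does not depend on library scaling and was chosen after the levels were seen. The 20.7% of the smallest library came from 6 of 29 collagen counts, so counting error alone could place it within the land range. How many genes separate in this way was not counted.

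**Figure D2:**
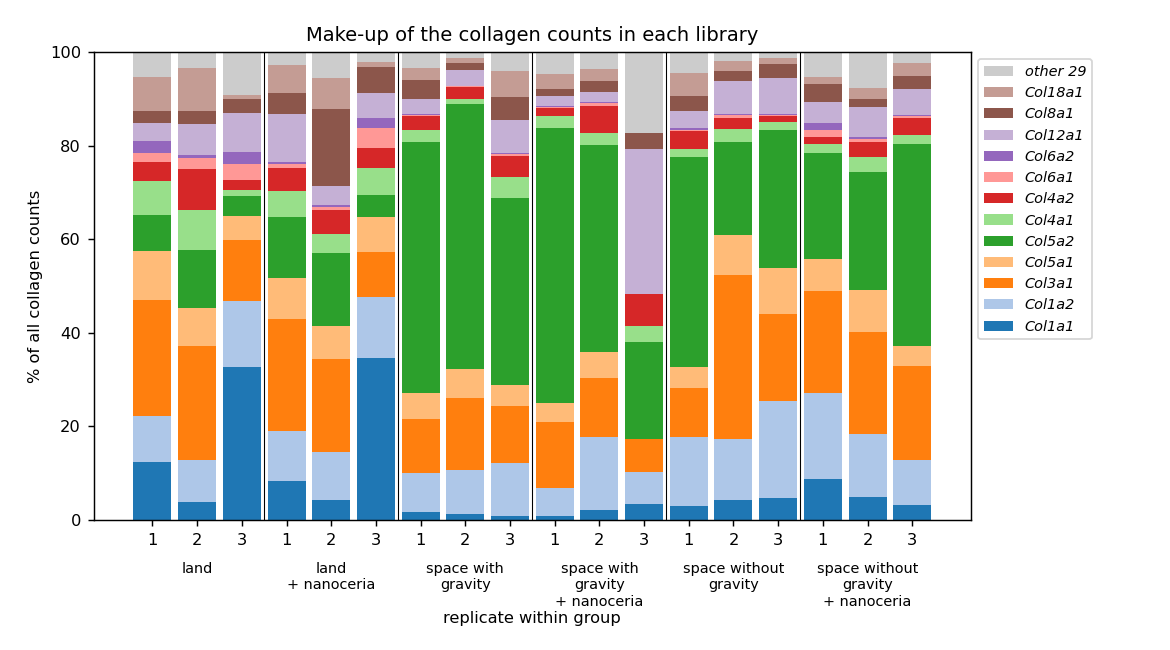
Share of each collagen in all collagen counts, in percent, for each of the 18 libraries, with 12 abundant genes in colour and the other 29 in grey. Col5a2 takes 20.7% to 58.9% in space with gravity and 4.09% to 15.6% on land, and Col1a1 takes 32.7% and 34.6% in the third land replicates.

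Col5a1 is the alpha 1 chain that pairs with the Col5a2 product in the main form of type V collagen. Col5a1 on land stood at 10.8, 3.92 and 16.4 CPM per kb without nanoceria and 5.76, 4.46 and 44.5 with nanoceria. Col5a1 in space with gravity stood at 6.67, 9.49 and 1.44 CPM per kb without nanoceria and 3.92, 11.7 and 0 with nanoceria. Col5a1 in space without gravity stood at 3.19, 11.7 and 16.6 CPM per kb without nanoceria and 11.2, 8.92 and 3.75 with nanoceria. The regimes overlapped, and the fitted log2 fold change in space with gravity against land was -1.22 ± 0.71 (edgeR adjusted p 0.246).

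The proportion of these partner chains differed between space and land in the libraries measured. On land the ratio of Col5a2 to Col5a1, in counts per kb, was 0.628, 1.32 and 0.697 without nanoceria and 1.33, 1.94 and 0.548 with nanoceria. Space without gravity gave 8.60, 2.06 and 2.68 without nanoceria and 2.97, 2.48 and 8.67 with nanoceria. Space with gravity gave 8.31, 8.18 and 8.09 without nanoceria and 12.9 and 7.05 in the first and second replicates with it. The lowest of the 11 space ratios, 2.06, lay above the highest land ratio, 1.94, by less than counting error. Their 95% exact counting intervals, 1.87 to 2.27 and 1.63 to 2.32, overlapped. The smallest library had 6 counts of Col5a2 and 0 of Col5a1 and gave no ratio.

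Col3a1, the single chain of type III collagen, is the neighbour of Col5a2 on chromosome 1, on the opposite strand with the 3′ ends facing each other 24.6 kb apart. Col3a1 on land stood at 21.7, 9.95 and 35.5 CPM per kb without nanoceria and 13.6, 10.8 and 49.8 with nanoceria. Col3a1 in space with gravity stood at 11.7, 20.6 and 3.49 CPM per kb without nanoceria and 11.8, 23.2 and 2.43 with nanoceria. Col3a1 in space without gravity stood at 6.23, 41.4 and 27.2 CPM per kb without nanoceria and 31.1, 18.5 and 14.8 with nanoceria. The regimes overlapped, and the fitted log2 fold change was -0.91 ± 0.61 in space with gravity against land (edgeR adjusted p 0.315). Col5a2 over Col3a1 per kb was 0.312 to 0.804 on land, 3.07 to 4.74 in space with gravity and 0.581 to 4.40 in space without gravity. The value of 3.07 came from 6 and 2 counts in the smallest library, with a counting interval of 0.549 to 31.1. On this ratio land and the 5 larger libraries of space with gravity (3.33 to 4.74) did not overlap, and space without gravity spanned the gap between them. Col5a1 over Col3a1 per kb was 0.393 to 0.894 on land and 0.333 to 0.571 in the 5 larger libraries of space with gravity, which overlapped.

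Col1a1 encodes the alpha 1 chain of type I collagen, the main collagen of tendon, bone and scar. The gene (ENSMUSG00000001506) lies on the plus strand of chromosome 11 at 94936224 to 94953042. Col1a1 on land stood at 16.4, 2.42 and 134 CPM per kb without nanoceria and 7.11, 3.54 and 267 with nanoceria. Col1a1 in space with gravity stood at 2.72, 2.54 and 0.376 CPM per kb without nanoceria and 1.10, 5.66 and 1.82 with nanoceria. Col1a1 in space without gravity stood at 2.72, 7.39 and 10.1 CPM per kb without nanoceria and 18.8, 6.33 and 3.46 with nanoceria. The third land replicates lay far above all others, and the remaining 4 land libraries overlapped the space libraries.

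The fitted log2 fold change of Col1a1 in space with gravity against land was -4.82 ± 1.14 (SE of the fit, n = 6 against 6 libraries), with an edgeR adjusted p of 0.0140. Without the third land replicate with nanoceria it was -2.75 (adjusted p 0.0528), and without the first replicate of space with gravity with nanoceria -4.56 (adjusted p 0.0563). With replicate 3 of both land groups left out it was -1.51 (adjusted p 0.159). Against land, space without gravity stood at -3.09 ± 1.03, with an edgeR adjusted p of 0.0800, and 0.20 with those 2 libraries left out.

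Col1a2 encodes the alpha 2 chain, which joins the alpha 1 chain in the usual type I molecule. Col1a2 on land stood at 6.80, 2.92 and 30.7 CPM per kb without nanoceria and 4.86, 4.40 and 52.5 with nanoceria. Col1a2 in space with gravity stood at 6.54, 9.99 and 2.50 CPM per kb without nanoceria and 4.00, 22.5 and 1.92 with nanoceria. Col1a2 in space without gravity stood at 6.96, 12.2 and 24.2 CPM per kb without nanoceria and 20.9, 9.08 and 5.60 with nanoceria. The regimes overlapped, and the fitted log2 fold change in space with gravity against land was -1.06 ± 0.75 (edgeR adjusted p 0.349). Its sign turned without the third land replicate with nanoceria (0.03) and under limma voom (0.15).

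The ratio of Col1a1 to Col1a2, in counts per kb, separated the regimes more than either level. On land it was 2.41, 0.827 and 4.35 without nanoceria and 1.46, 0.804 and 5.08 with nanoceria. Space with gravity had values of 0.416, 0.254 and 0.150 without nanoceria and 0.275, 0.251 and 0.947 with nanoceria. Space without gravity had 0.391, 0.606 and 0.418 without nanoceria and 0.901, 0.698 and 0.617 with nanoceria. Each land library lay above the 5 larger libraries of space with gravity, including the land libraries with low Col1a1. The value of 0.947 came from 1 and 2 counts in the smallest library. Space without gravity, at 0.391 to 0.901, overlapped the land range of 0.804 to 5.08 at its edge.

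**Figure D3:**
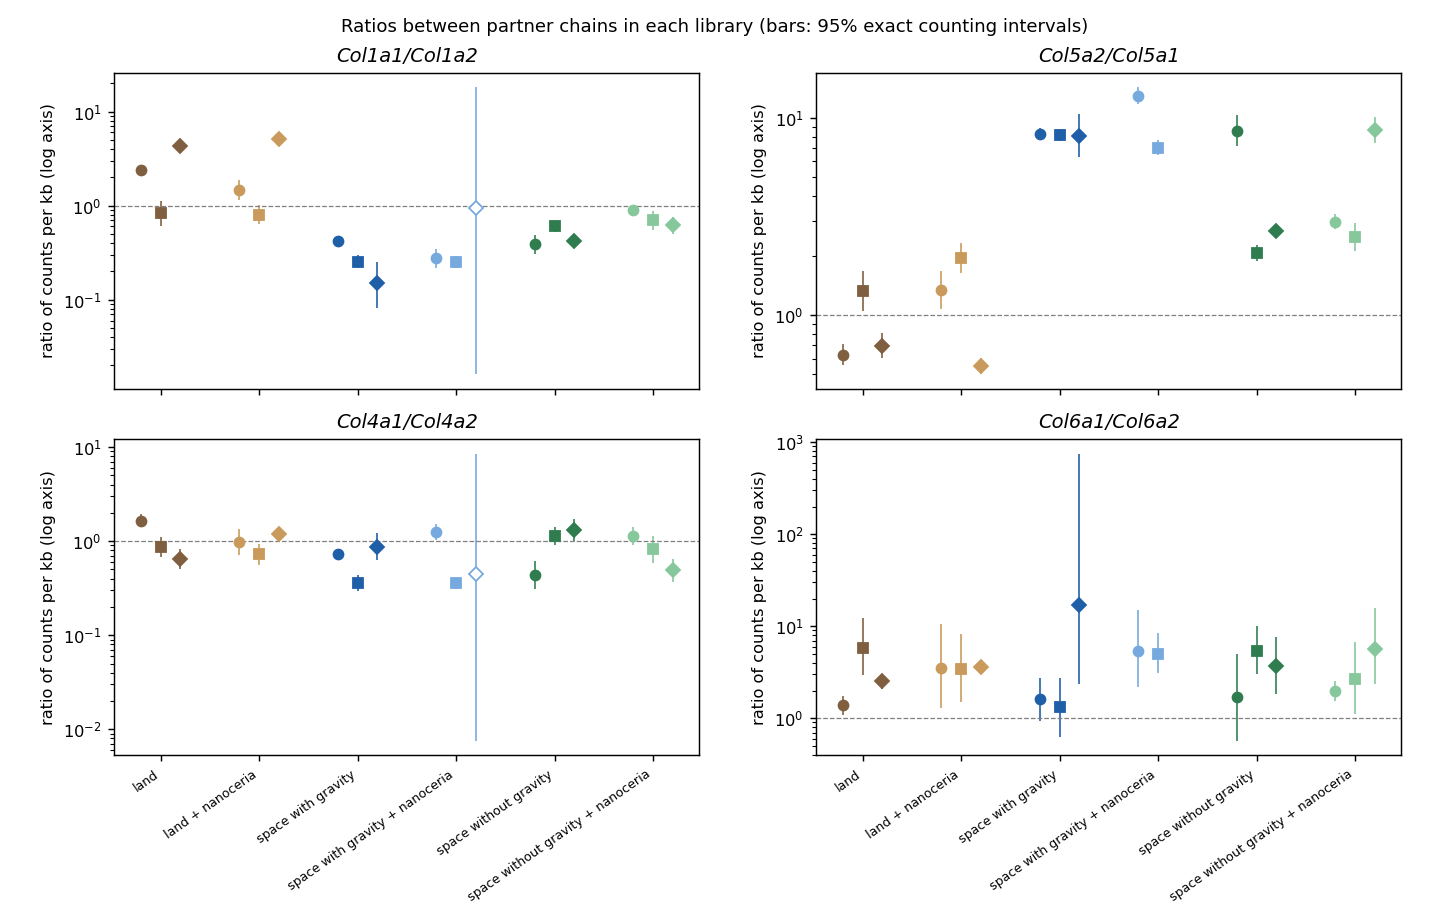
Ratio between the counts per kb of partner chains in each library, on a log axis, for types I, V, IV and VI, with 95% exact counting intervals as bars and open symbols where both chains together had under 10 counts. Circles, squares and diamonds are replicates 1, 2 and 3, and libraries with 0 counts of the second chain are not drawn. Col5a2/Col5a1 is 0.548 to 1.94 on land and 2.06 or higher in space, while Col4a1/Col4a2 and Col6a1/Col6a2 overlap between regimes. The bars of the Col5a2/Col5a1 values 1.94 and 2.06 overlap.

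Among the remaining fibrillar chains, Col5a3, Col11a2 and Col27a1 were tested and none passed. Col27a1 is a fibrillar chain of developing cartilage. It reached at most 25 counts in any library, with 0 to 5 in space with gravity and 3 to 25 on land. Its level in each of the 6 libraries of space with gravity (0 to 0.0612 CPM per kb) lay below each of the 6 on land (0.0615 to 0.606). The ranges nearly touch at counts near the limit of detection, so this order rests on a few reads. How many of all genes are ordered in this way was not counted. The fitted log2 fold change was -2.51 ± 0.83, with an edgeR adjusted p of 0.0514. DESeq2 size factors gave -2.83 and an adjusted p of 0.0317.

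Type VI collagen is a heterotrimer of Col6a1, Col6a2 and one further chain, Col6a3 in most tissues, and mutations in its genes cause muscular dystrophy. Col6a2 (ENSMUSG00000020241, 76595762 to 76623630) and Col6a1 (ENSMUSG00000001119, 76708792 to 76726168) lie 85.2 kb apart on the minus strand of chromosome 10. Col8a2 (ENSMUSG00000056174, plus strand of chromosome 4, 126286793 to 126314330) encodes a short network-forming chain known from the cornea and vessel walls. The sequences just upstream of these 3 genes, each called lower in space with gravity, are shown 5′ to 3′. Col1a1, the other collagen called lower, had no matched window. The sequences come from RefSeq's promoter windows of GRCm38.p6, with capitals for GGGCGG, the core of the GC box, on either strand.
Col8a2, chr4:126286544-126286792, plus strand: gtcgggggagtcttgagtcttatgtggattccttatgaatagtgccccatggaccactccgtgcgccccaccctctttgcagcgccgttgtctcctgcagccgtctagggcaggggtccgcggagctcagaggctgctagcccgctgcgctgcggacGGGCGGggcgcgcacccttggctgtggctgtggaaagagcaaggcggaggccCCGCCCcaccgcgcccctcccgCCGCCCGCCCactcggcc
Col6a2, chr10:76623631-76623880, minus strand: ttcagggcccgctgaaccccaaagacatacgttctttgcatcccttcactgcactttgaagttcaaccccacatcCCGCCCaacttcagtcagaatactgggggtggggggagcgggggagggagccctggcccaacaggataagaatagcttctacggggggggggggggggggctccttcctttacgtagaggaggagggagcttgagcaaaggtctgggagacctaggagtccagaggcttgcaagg
Col6a1, chr10:76726169-76726294, minus strand: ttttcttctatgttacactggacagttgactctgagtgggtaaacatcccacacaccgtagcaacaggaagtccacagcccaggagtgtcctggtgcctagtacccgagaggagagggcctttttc

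The 249 bases of Col8a2 held 4 matches to GGGCGG or its reverse complement, among them a pair that overlapped by 2 bases, the 250 bases of Col6a2 held 1 and the 126 bases of Col6a1 held 0. TATAAA and CCAAT, searched on both strands, had 0 matches in all 3. For the full 300-base windows of 32851 promoters, 35.7% held GGGCGG, 13.6% TATAAA and 37.4% CCAAT on either strand. Of 35 windows from 32 collagen genes, 20 held GGGCGG, 5 TATAAA and 12 CCAAT. The printed stretches are shorter than 300 bases, since bases from the deposited gene start on were left out.

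Col6a1 on land stood at 3.72, 2.16 and 20.9 CPM per kb without nanoceria and 1.10, 0.823 and 48.2 with nanoceria. Col6a1 in space with gravity stood at 0.397, 0.275 and 0.338 CPM per kb without nanoceria and 0.362, 2.22 and 0 with nanoceria. Col6a1 in space without gravity stood at 0.366, 1.84 and 1.10 CPM per kb without nanoceria and 4.65, 1.19 and 0.812 with nanoceria. The third land replicates were again highest, and 5 of the 6 libraries of space with gravity lay below every land library. The log2 fold change in space with gravity against land was -4.25 ± 1.01 (SE of the fit, n = 6 against 6 libraries), with an edgeR adjusted p of 0.0142. It was -2.17 (adjusted p 0.0646) without the third land replicate with nanoceria, -3.92 (adjusted p 0.0575) without the first replicate of space with gravity with nanoceria, and -1.38 (adjusted p 0.150) without replicate 3 of both land groups.

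Col6a2 on land stood at 2.70, 0.369 and 8.29 CPM per kb without nanoceria and 0.311, 0.241 and 13.2 with nanoceria. Col6a2 in space with gravity stood at 0.248, 0.206 and 0.0198 CPM per kb without nanoceria and 0.0666, 0.440 and 0 with nanoceria. Col6a2 in space without gravity stood at 0.217, 0.343 and 0.300 CPM per kb without nanoceria and 2.36, 0.446 and 0.142 with nanoceria. The ranges overlapped, with the land libraries of replicate 3 and the first land replicate without nanoceria above every library of space with gravity. The log2 fold change was -4.38 ± 1.11 (SE of the fit, n = 6 against 6 libraries), with an edgeR adjusted p of 0.0183. It was -2.33 (adjusted p 0.0930) without the third land replicate with nanoceria, -3.99 (adjusted p 0.0758) without the first replicate of space with gravity with nanoceria, and -1.68 (adjusted p 0.184) without replicate 3 of both land groups.

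Col6a3 had the lowest mean level of these 3 type VI chains. Col6a3 on land stood at 0.716, 0.171 and 1.46 CPM per kb without nanoceria and 0.371, 0.201 and 3.51 with nanoceria. Col6a3 in space with gravity stood at 0.415, 0.0503 and 0.0413 CPM per kb without nanoceria and 0.0860, 0.373 and 0.996 with nanoceria. Col6a3 in space without gravity stood at 0.0671, 0.463 and 0.328 CPM per kb without nanoceria and 0.535, 0.0310 and 0.142 with nanoceria. The ranges overlapped, and the log2 fold change of -2.25 ± 0.92 did not pass the threshold (edgeR adjusted p 0.102). Col6a1 over Col6a2 per kb was 1.38 to 5.86 on land, 1.33 to 17.1 in space with gravity and 1.69 to 5.70 in space without gravity, overlapping throughout. The value of 17.1 came from 9 and 1 counts.

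Col8a2 was read almost only on land. It had 46, 1 and 429 counts on land without nanoceria and 0, 0 and 85 in the nanoceria group. Its counts in space with gravity were 0, 2 and 0 without nanoceria and 2, 0 and 0 with nanoceria. Its counts in space without gravity were 0, 0 and 7 and, with nanoceria, 7, 8 and 0. Most of its counts lay in the third land replicates and the first land replicate without nanoceria, while the other land libraries overlapped space with gravity. Summed over the 3 libraries, the ratio of land to space with gravity rests on 2 counts in space with gravity in each case, and without nanoceria 429 of the 476 land counts came from 1 library. Per scaled library size, land was 562-fold above space with gravity without nanoceria (95% exact counting interval 155 to 4652) and 75.0-fold above it with nanoceria (20.1 to 629). These intervals cover counting error only and not the spread between libraries. The fitted log2 value of -7.75 ± 1.85 (edgeR adjusted p 0.0145) depends on the prior count. It was -3.32 (adjusted p 0.997) without the third land replicate with nanoceria and -1.40 (adjusted p 0.957) without replicate 3 of both land groups, and the first replicate of space with gravity with nanoceria was also needed for the call (adjusted p 0.0680 without it).

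**Figure D4:**
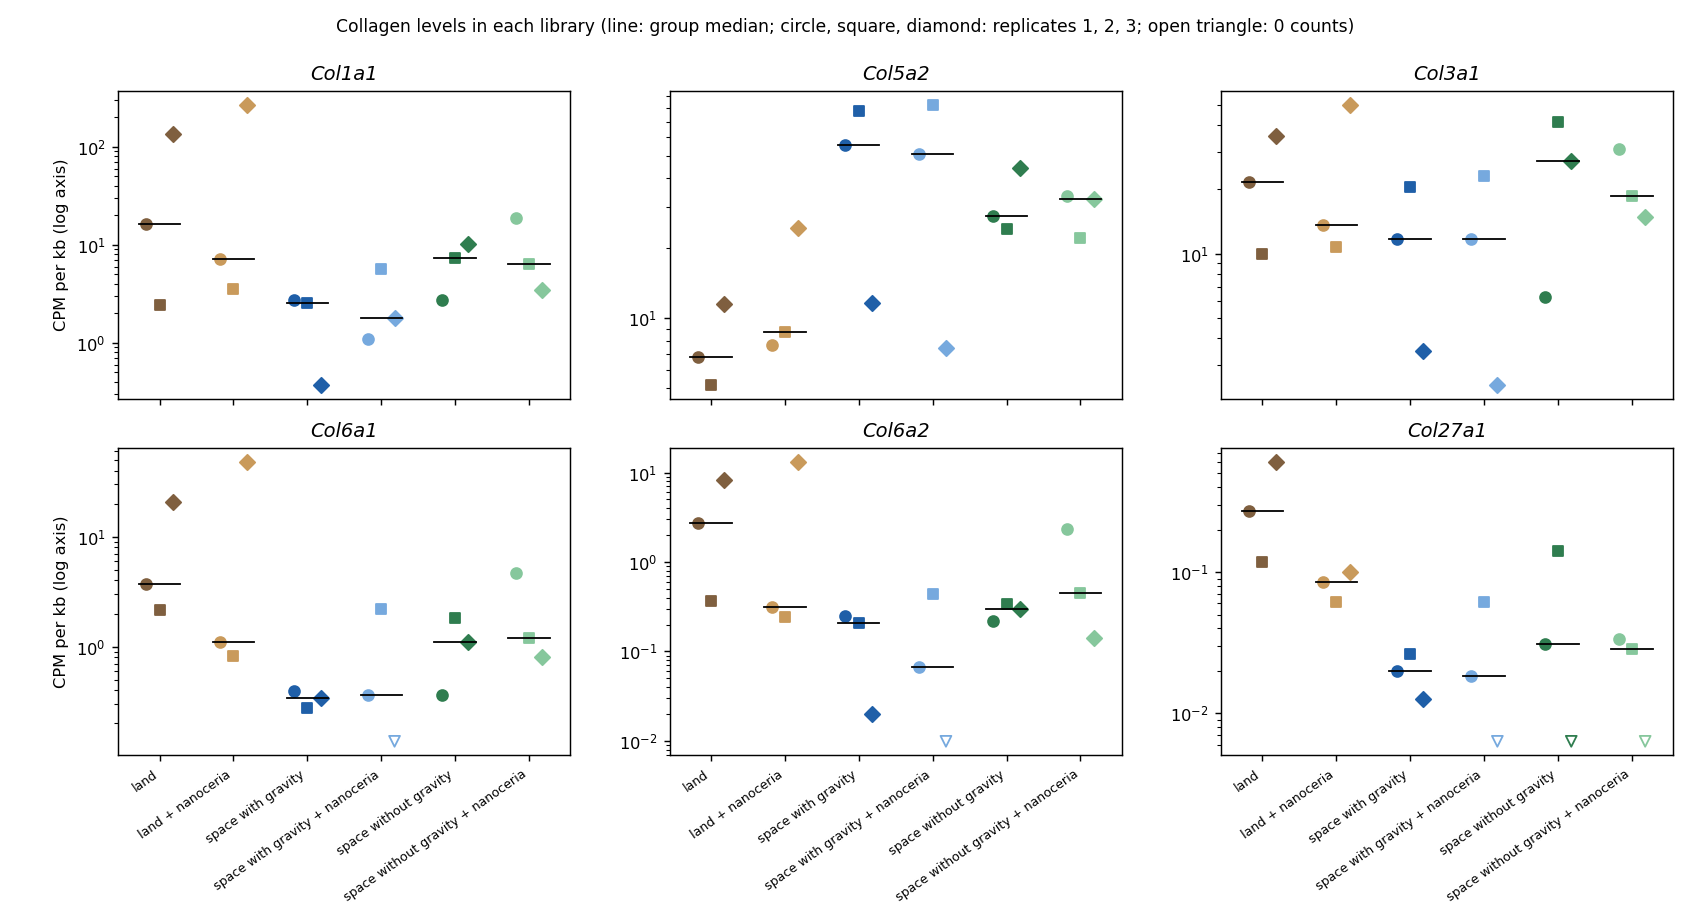
Level of 6 collagens in each library in CPM per kb, on log axes, with a line at each group's median and open triangles for 0 counts. Circles, squares and diamonds are replicates 1, 2 and 3. Col1a1, Col6a1 and Col6a2 are highest in the third land replicates, and Col5a2 lies above all land libraries in 8 of the 12 space libraries.

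Col8a1, the partner chain of Col8a2, was more abundant and more even. Col8a1 on land stood at 4.67, 2.15 and 15.2 CPM per kb without nanoceria and 5.00, 17.1 and 55.9 with nanoceria. Col8a1 in space with gravity stood at 7.84, 3.84 and 2.68 CPM per kb without nanoceria and 2.26, 8.46 and 2.33 with nanoceria. Col8a1 in space without gravity stood at 3.65, 4.86 and 8.83 CPM per kb without nanoceria and 10.2, 2.54 and 4.04 with nanoceria. The ranges overlapped, and the log2 fold change in space with gravity against land was -1.53 ± 0.63 (edgeR adjusted p 0.104).

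Type IV collagen is the basement membrane network, built in most tissues from Col4a1 and Col4a2, which lie head to head on chromosome 8 with 22 shared bases. Col4a1 on land stood at 8.62, 4.62 and 5.24 CPM per kb without nanoceria and 4.12, 2.95 and 39.5 with nanoceria. Col4a1 in space with gravity stood at 3.41, 1.82 and 1.65 CPM per kb without nanoceria and 2.78, 5.77 and 1.60 with nanoceria. Col4a1 in space without gravity stood at 1.45, 4.34 and 3.41 CPM per kb without nanoceria and 3.59, 3.48 and 1.88 with nanoceria. The ranges overlapped, with the third land replicate with nanoceria highest. The log2 fold change was -1.73 ± 0.57 in space with gravity against land (edgeR adjusted p 0.0505) and -1.69 ± 0.56 in space without gravity against land (adjusted p 0.0785). With DESeq2 size factors these were -2.13 (adjusted p 0.0229) and -1.99 (adjusted p 0.0482).

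Col4a2 on land stood at 5.24, 5.37 and 8.14 CPM per kb without nanoceria and 4.19, 4.09 and 32.8 with nanoceria. Col4a2 in space with gravity stood at 4.68, 5.05 and 1.89 CPM per kb without nanoceria and 2.20, 15.9 and 3.60 with nanoceria. Col4a2 in space without gravity stood at 3.33, 3.85 and 2.61 CPM per kb without nanoceria and 3.19, 4.26 and 3.84 with nanoceria. The ranges overlapped, and the log2 fold change in space with gravity against land was -0.75 ± 0.55 (edgeR adjusted p 0.362), with the sign turned to 0.13 without the third land replicate with nanoceria. Col4a1 over Col4a2 per kb was 0.643 to 1.64 on land, 0.36 to 1.26 in space with gravity and 0.435 to 1.31 in space without gravity. The regimes overlapped.

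The other tested basement membrane chains were Col18a1, Col4a3 and Col4a5, and none passed. Col18a1, whose product carries the endostatin fragment, on land stood at 8.90, 5.35 and 2.90 CPM per kb without nanoceria and 4.69, 5.14 and 7.65 with nanoceria. Col18a1 in space with gravity stood at 3.54, 1.97 and 2.20 CPM per kb without nanoceria and 3.90, 6.31 and 0 with nanoceria. Col18a1 in space without gravity stood at 4.23, 3.44 and 2.28 CPM per kb without nanoceria and 3.26, 2.80 and 2.75 with nanoceria. The ranges overlapped, and the log2 fold change in space with gravity against land was -0.83 ± 0.42 (edgeR adjusted p 0.184). Col4a5, the chain altered in X-linked Alport syndrome, had 250 counts in 1 library of space with gravity and 144 in 1 of space without gravity, and at most 57 in the other 16.

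Col12a1, a fibril-associated collagen of tendon and muscle connective tissue, was the most abundant of that class. Col12a1 on land stood at 2.10, 1.75 and 15.0 CPM per kb without nanoceria and 3.77, 1.43 and 17.5 with nanoceria. Col12a1 in space with gravity stood at 2.16, 2.96 and 1.31 CPM per kb without nanoceria and 1.24, 2.59 and 7.04 with nanoceria. Col12a1 in space without gravity stood at 1.44, 5.39 and 7.23 CPM per kb without nanoceria and 4.27, 3.53 and 2.65 with nanoceria. The third land replicates were highest and the ranges overlapped, with a log2 fold change of -1.41 ± 0.68 in space with gravity against land (edgeR adjusted p 0.164). The value of 7.04 in the smallest library came from 9 counts. The remaining tested members, Col7a1, Col9a3, Col16a1, Col20a1 and Col23a1, had at most 126 counts in any library and none passed in this comparison.

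Space without gravity differed from land in 0 of the 24 collagens by edgeR, against 5.25% of all genes. At an unadjusted p under 0.05 there were 12 of 24, against 24.7% of all genes, and 2 of the 12, Col5a2 and Col4a5, were higher. The smallest adjusted p was 0.0567, for Col8a2. The DESeq2 test called 7, all lower, against 13.2% of all genes. DESeq2 size factors within edgeR called 3, all lower, against 7.03%, and limma voom called 1, Col5a2, as higher (adjusted p 0.0208), against 8.56%. The median log2 fold change of the 24 was -1.08 against -0.02 over all genes. Without the libraries of replicate 3 of both land groups the collagen median was 0.38 and the all-gene median 0.11, so the sign of the collagen median rested on those 2 libraries. The same change moved the collagen median in space with gravity against land to -0.12.

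**Figure D5:**
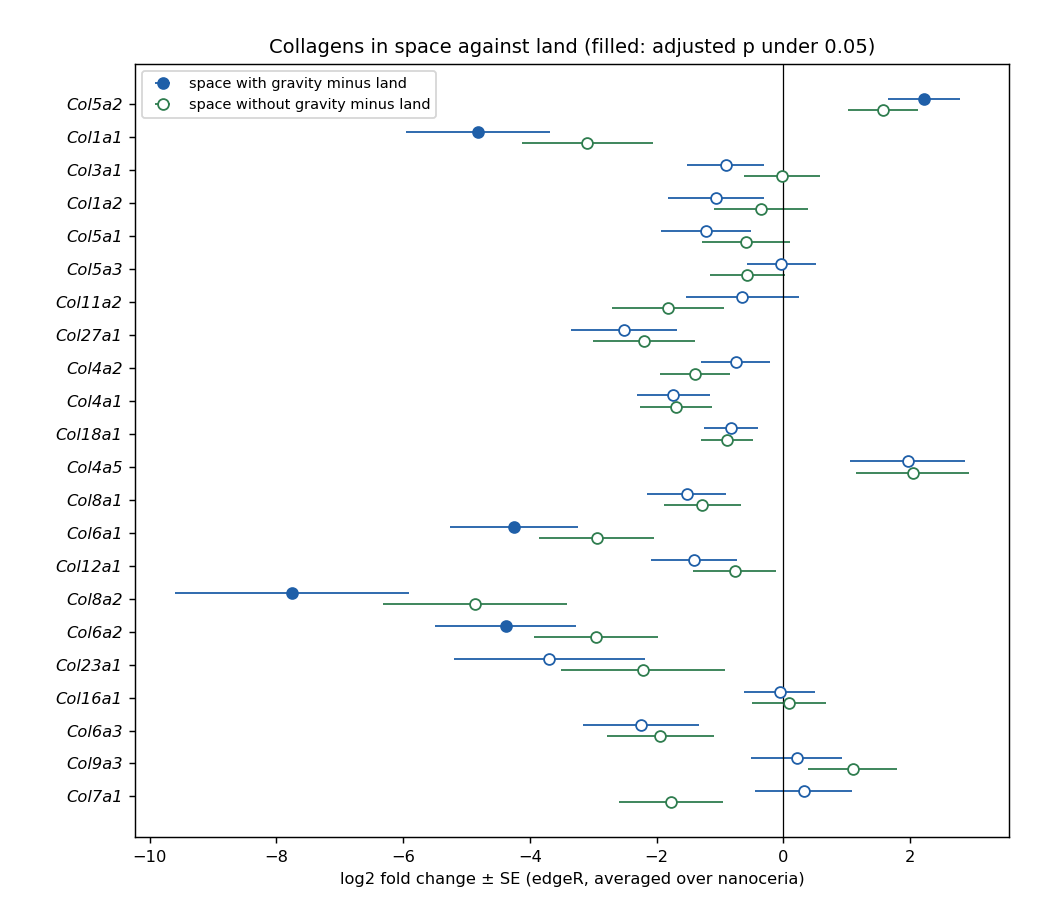
Fitted log2 fold changes with their standard errors for 22 tested collagens in space with gravity (blue) and space without gravity (green) against the same 6 land libraries, filled where the adjusted p was under 0.05. Col4a3 and Col20a1, with 0 counts in whole groups, are left out. The 5 filled points are Col5a2 at 2.22, Col1a1 at -4.82, Col6a1 at -4.25, Col6a2 at -4.38 and Col8a2 at -7.75.

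Withdrawal of gravity in space, averaged over nanoceria, gave 0 collagens past the edgeR threshold, as it gave 0% of all genes. At an unadjusted p under 0.05 there was 1 of 24, against 5.85% of all genes, and the DESeq2 test and limma voom also called 0. That gene was Col7a1, the anchoring fibril collagen of skin, at -2.09 ± 0.81 (adjusted p 0.732) with 0 to 45 counts in the space libraries. Col5a2 differed by -0.65 ± 0.54 (edgeR adjusted p 0.954).

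Nanoceria averaged over the 3 regimes gave 0 collagens past the edgeR threshold, against 0% of all genes, and 0 by the DESeq2 test and by limma voom. At an unadjusted p under 0.05 there were 4 of 24, against 6.54% of all genes. Col16a1, a fibril-associated chain, and Col5a3, a further type V chain, had positive log2 fold changes of 1.32 ± 0.48 and 1.26 ± 0.49 (edgeR adjusted p 0.745 and 0.752). Col4a3, a type IV chain of kidney and lung, owed its value to 2 nanoceria libraries, with 126 counts in the second replicate of space without gravity and 131 in the first of space with gravity, against at most 5 elsewhere. Col20a1 had 0 counts in the 6 nanoceria libraries of land and space without gravity, and up to 37 in those without nanoceria. No fold is given for these 2, since whole groups were at 0.

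The 9 pairwise comparisons gave 0 collagens past the edgeR threshold, where all genes gave 0% in 7 of them, 0.00865% in space with gravity against land with nanoceria and 0.0433% in space without gravity against land with nanoceria. Between 0 and 7 of the 24 collagens had an unadjusted p under 0.05, against 3.97% to 21.5% of all genes. DESeq2's test called collagens in 3 of the 9, with 7 in space with gravity against land without nanoceria (11.1% of all genes), 5 in the same comparison with nanoceria (8.15%) and 4 in space without gravity against land with nanoceria (7.08%). Limma voom called 3 in the first of these (20.6% of all genes) and 0 elsewhere. The test of a nanoceria effect that differs between regimes gave 0 collagens, with 0% of all genes called, 2 of 24 at an unadjusted p under 0.05 against 6.14%, and a smallest adjusted p of 0.756.

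Genes that make, process and bind collagen were read from 4 further lists for space with gravity against land, and all called members were lower, where 6.74% of all genes were called lower. Of 17 tested genes for folding and modification in the endoplasmic reticulum, 3 fell (Crtap, P3h3 and P3h4). Of 10 for propeptide cleavage and crosslinking, 3 fell (Loxl1, Loxl3 and Pcolce). Of 5 receptors and uptake genes, 1 fell (Mrc2), and of 18 collagen-binding matrix genes, 6 fell (Bgn, Fmod, Hspg2, Postn, Thbs1 and Thbs2). The median log2 fold changes of the lists were -0.76, -0.89, -0.76 and -1.34, against -0.04 over all genes. Leaving out 1 library at a time lost the call for Crtap in 0 of 18 fits, for P3h4 and Thbs1 in 1, for Pcolce in 2, for Loxl1, Mrc2 and Postn in 3, for P3h3 in 5, for Loxl3 in 5 of 17 and for Thbs2 in 6. The calls of Bgn, Fmod and Hspg2 were lost in 14, 16 and 16 of 18 fits, so the count of 6 matrix genes is not firm. Without replicate 1 of space with gravity with nanoceria all of the 13 but Crtap lost the call, and without replicate 3 of land with nanoceria all but Crtap, P3h4 and Thbs1 did. In the other 3 averaged comparisons edgeR called 0 members of these lists. Space without gravity against land had 4, 3, 1 and 6 members of the lists, in the order given, at an unadjusted p under 0.05, against 24.7% of all genes. Gravity withdrawn had 0 in each list, against 5.85% of all genes, and nanoceria had 1 matrix gene, Fmod, against 6.54%.

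Crtap, prolyl 3-hydroxylase 3 (P3h3) and P3h4 belong to the complexes that hydroxylate collagen chains before they fold. Crtap had 32.6 to 104 CPM on land, 11.9 to 25.2 in space with gravity and 16 to 40.1 in space without gravity. Land and space with gravity did not overlap, and how many of all genes separate in this way was not counted. The value of 11.9 came from 1 count in the smallest library. The log2 fold change was -1.81 ± 0.39 (edgeR adjusted p 0.00999). Its call stayed without any single library and without replicate 3 of both land groups. With GC content and length offsets the log2 fold change was -1.03 (adjusted p 0.0865), and with the dominant-gene share in the model -1.13 (adjusted p 0.527). Pcolce, which speeds removal of the procollagen C-propeptide, had 23.5 to 843 CPM on land and 0 to 38.4 in space with gravity, ranges that overlapped, and a log2 fold change of -3.48 ± 0.90 (edgeR adjusted p 0.0201). Without the third land replicate with nanoceria Pcolce was at -1.73 (adjusted p 0.101) and without the first replicate of space with gravity with nanoceria at -3.33 (adjusted p 0.0717).

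Serpinh1, the collagen chaperone HSP47, had 130 to 283 CPM on land and 35.7 to 184 in space with gravity, with a log2 fold change of -0.95 ± 0.39 (edgeR adjusted p 0.105). The 35.7 came from 3 counts in the smallest library, and the next lowest value in space with gravity was 85.6. P4ha1, the catalytic subunit of prolyl 4-hydroxylase, was at -0.73 ± 0.54 (adjusted p 0.369), and the crosslinking enzyme Lox at 0.49 ± 0.58 (adjusted p 0.599). Fn1, fibronectin, had 201 to 516 CPM on land, 107 to 564 in space with gravity and 166 to 594 in space without gravity, ranges that overlapped (edgeR adjusted p 0.981 for space with gravity against land). The 107 came from 9 counts in the smallest library.

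Other properties of the libraries moved with these differences. The 6 dominant genes held 49.6% to 76.3% of counts on land, 23.8% to 54.4% in space with gravity and 40.7% to 70.3% in space without gravity. With that share as a covariate edgeR called 0 collagens in space with gravity against land (9 at an unadjusted p under 0.05) and 0.00865% of all genes. The share moved with the regime, so this fit cannot tell share and regime apart. Bglap, the bone matrix gene osteocalcin, was the single called member of 3 tested in the osteoblast and chondrocyte list, at -2.19 ± 0.71 (edgeR adjusted p 0.0468), and leaving out any of 16 of the 18 libraries in turn lost that call. The summed level of the 9 genes of that list was 42.4 to 672 CPM on land, 94.5 to 218 in space with gravity and 26.5 to 236 in space without gravity, with Sp7 and Chad at 0 throughout. Of the 6 tested myoblast markers and the 2 tested muscle differentiation markers, 0 passed the edgeR threshold in this comparison, with 2 and 0 at an unadjusted p under 0.05. The 9 myoblast genes summed to 146 to 159 CPM on land without nanoceria and 273 to 563 with it, against 71.5 to 252 in space with gravity. The 71.5 was in the smallest library and rests on few counts. Replicate 1 of land without nanoceria stood apart in differentiation markers, with 44 counts of Myog, 123 of Mymk, 39 of Myh3, 75 of Ckm and 252 of Acta1, against at most 12, 5, 5, 2 and 64 in the other 17 libraries. The 5 collagens called in space with gravity against land kept their calls without that library. The part of these properties in the collagen differences was not tested, apart from the covariate fit, which cannot decide it.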

How the data were processed

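Polyadenylated RNA of 18 libraries was analysed, and the 18 small RNA samples were not analysed here. The authors deposited unnormalized read counts per gene with each gene's coordinates and exon length, per the file headers. The submitters' processing notes name CASAVA, Trimmomatic 0.36.29, STAR, featureCounts of Subread and GRCm38.p6. The strand setting and annotation release are not given in the sources used here.

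Genes passing edgeR's filterByExpr (11558 of 49315) were scaled by TMM and fitted with edgeR 4.0.16 (robust quasi-likelihood, group means over all 18 libraries, R 4.3.3) in 4 averaged, 9 pairwise and 1 interaction contrast, with Benjamini-Hochberg adjustment over all 11558. CPM uses TMM-scaled library sizes. SE is the log2 fold change divided by the root of F. Alternatives were DESeq2 1.42.0 (test and size factors), limma 3.58.1 voom, other filters, fewer libraries, removal of the 6 dominant genes or their share as a covariate, and GC and length offsets.

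The fit was tested on simulated data with known changes. Replicates are separate culture units. Counting intervals cover counting error only.

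The members and lists were chosen with earlier results of these data known. Values for each library are given for called members, the 6 of highest mean level and a set of type I, III, IV, V, VI, XII and XVIII chains. In the other lists, called members and Serpinh1, P4ha1, Lox and Fn1 are named. Promoter windows are from RefSeq on GRCm38.p6, matched by symbol for 32 of 41 genes. Col1a1, Col2a1, Col4a3, Col5a2, Col9a3, Col12a1, Col14a1, Col22a1 and Col26a1 were not matched.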

Additional observations from a re-analysis of the deposited data

How the results depend on the processing

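Space and land were separate runs, and genes under about 10 counts carry little information. The calls rested most on replicate 1 of space with gravity with nanoceria and replicate 3 of land with nanoceria. Leaving out the smallest library kept the 5 calls and added Col11a1. Removing the 6 dominant genes before scaling and testing kept the 5 calls and added Col27a1. With the dominant-gene share as a covariate the calls were lost, but that share moved with the regime, so this fit cannot say whether they depend on it. No paired analysis was possible because numbers shared between groups were given in accession order, and the labels do not say whether libraries of one number share a batch or day. For 40 fold changes of named genes, 420 refits under another setting kept direction and side of the threshold in 318 cases, lost the call in 66, gained one in 31 and turned the sign in 5.

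In space with gravity against land, the 5 called collagens became 8 with DESeq2 size factors, 11 with the DESeq2 test, 1 with limma voom, 11 with no filter on low counts and 0 with the share of the 6 dominant genes in the model (9 at an unadjusted p under 0.05). Leaving out 1 library at a time gave 0 to 7 called, with 0 without replicate 1 of space with gravity with nanoceria (8 at an unadjusted p under 0.05, 3.73% of all genes called) and 1 without replicate 3 of land with nanoceria (8.36% of all genes). Without replicate 3 of both land groups, an alternative chosen after seeing the data, it was 1 (9.76% of all genes). The share of all genes called also changed with the setting. Here and below, a count without that share beside it is not a result about the collagens.

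In space without gravity against land, 0 became 3 with DESeq2 size factors, 7 with the DESeq2 test, 1 with limma voom, 9 with no filter and 2 at a mean of at least 50 counts. Leaving out 1 library gave 0 to 3, with 2 without replicate 1 of land with nanoceria and 3 without replicate 2.

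With no filter, calls also appeared for nanoceria averaged over regimes (2), gravity withdrawn (1), nanoceria in space without gravity (2) and nanoceria in space with gravity (1). For the pairs of space with gravity against land, the counts without nanoceria were 7 with the DESeq2 test, 3 with limma voom, 7 with no filter, 1 with only the compared groups and 0 to 2 leaving out 1 library (2 without replicate 3 of land with nanoceria), and with nanoceria 5 with the DESeq2 test and 6 with no filter. For space without gravity against land they were 4 with no filter without nanoceria, and with nanoceria 4 with the DESeq2 test and 6 with no filter. Fewer libraries or other genes tested enter some of these counts by construction, and for the rest the cause was not tested.

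Signs turned for 4 collagens. In space with gravity against land Col1a2 (-1.06) was at 0.15 with limma voom, 0.78 without replicate 3 of both land groups and, leaving out 1 library, between -1.85 and 0.03 (0.0322 without replicate 3 of land with nanoceria). Col4a2 (-0.75) was at 0.25 without replicate 3 of both land groups and, leaving out 1 library, between -1.52 and 0.127 (without replicate 3 of land with nanoceria). In space without gravity against land Col1a1 (-3.09) was at 0.20 and Col8a2 (-4.86) at 1.55 without replicate 3 of both land groups.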
